A study of Mus musculus with 6 samples.

Results

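Collagens are the main fibre- and sheet-forming proteins of the extracellular matrix. Each collagen molecule is built from several alpha chains wound into a helix, and each chain is the product of its own gene. The members described here are the protein-coding mouse genes whose symbols have the form Col, a number, a and a number. There were 44 such genes among 54356 annotated genes with transcripts in the data. They were sorted by the structure their protein forms into 11 fibrillar, 6 basement membrane network, 6 beaded filament, 4 transmembrane, 9 fibril-associated, 2 multiplexin and 3 short-chain network genes, and 3 others. Of the 44, 35 passed the filter for low counts and were tested among 16048 genes.

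RNA was sequenced from hearts of C57BL/6 mouse embryos at E9.5, with 3 libraries labelled FlncgKO and 3 labelled control. In FlncgKO embryos several exons of Flnc, the gene of the actin crosslinker filamin C, were deleted in the whole embryo through Sox2Cre. Sox2Cre acts in the epiblast, so every cell type of the heart carries the deletion. The study states that the deletion puts a premature stop codon into the Flnc mRNA and triggers its decay. Controls were littermates, and the sources used here give no further alleles for them and no number of hearts in a library. The labels name whole hearts and the study's methods name hearts or isolated ventricles, so p-values measure the spread between libraries of unstated make-up.

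At this stage the heart is a looped tube of cardiomyocytes lined by endocardium. The matrix between these layers is the cardiac jelly, and the cells that invade it form the cushions from which valves arise. Collagen IV chains build the sheet of the basement membrane under endothelium and around muscle cells. Fibrillar collagens I, II, III, V and XI assemble into fibrils, collagen VI forms beaded filaments near cells, and transmembrane collagens stay in the plasma membrane with their collagen domain outside. In bulk hearts, fewer cells of a type and less RNA per cell cannot be told apart.

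Libraries held 19208859 to 23123255 estimated counts. Levels are given as CPM, the share of a library's counts after TMM scaling for library composition, when 1 gene is compared between libraries. They are given as TPM, the deposited length-corrected share summed over a gene's transcripts, when genes of different length are set side by side. Values of a group are listed in the order of replicates 1, 2 and 3. Flnc had 844, 623 and 746 CPM in the control libraries and 127, 111 and 240 CPM in the FlncgKO libraries. All FlncgKO libraries were below all controls (log2 fold change -2.21, SE 0.35, adjusted p = 0.0656 by edgeR and 1.09e-06 by DESeq2). The 4 Y-linked genes Ddx3y, Uty, Eif2s3y and Kdm5d summed to between 119 and 139 CPM in controls, 79.6 CPM in FlncgKO replicate 1, and 3.81 and 4.27 CPM in FlncgKO replicates 2 and 3. The Y-linked level was thus below all controls in every FlncgKO library, and least so in replicate 1. The labels give no sex. Because the Y-linked level went with genotype, its part in a difference and that of the deletion cannot be told apart here. This also holds for calls lost or kept with the Y-linked level as a covariate.

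Few collagen chain genes passed the threshold for a difference. The test was edgeR's quasi-likelihood test, with p-values adjusted over all genes by the Benjamini-Hochberg method and a threshold of 0.05. By it Col4a1, Col4a2 and Col6a3 were higher and Col13a1 was lower in FlncgKO hearts. These were 3 of 35 members (8.57%) higher where 1.06% of all genes tested were called higher, and 1 of 35 (2.86%) lower where 0.249% of all genes were called lower. DESeq2, the tool of the study, called the same 4 and additionally Col1a1, Col1a2 and Col12a1 as higher. That made 6 of 34 members (17.6%) higher against a background of 6.54%, and 1 of 34 (2.94%) lower against 2.45%. Col24a1 had no adjusted p from DESeq2. The values of the 3 FlncgKO libraries all lay above the controls for 9 members (25.7%, where 15.7% of all genes did so) and all below for 4 members (11.4%, where 14.1% did so). The remaining 22 members overlapped between groups. The median log2 fold change was -0.004 over the 35 members and 0.009 over all genes tested.

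**Figure D1:**
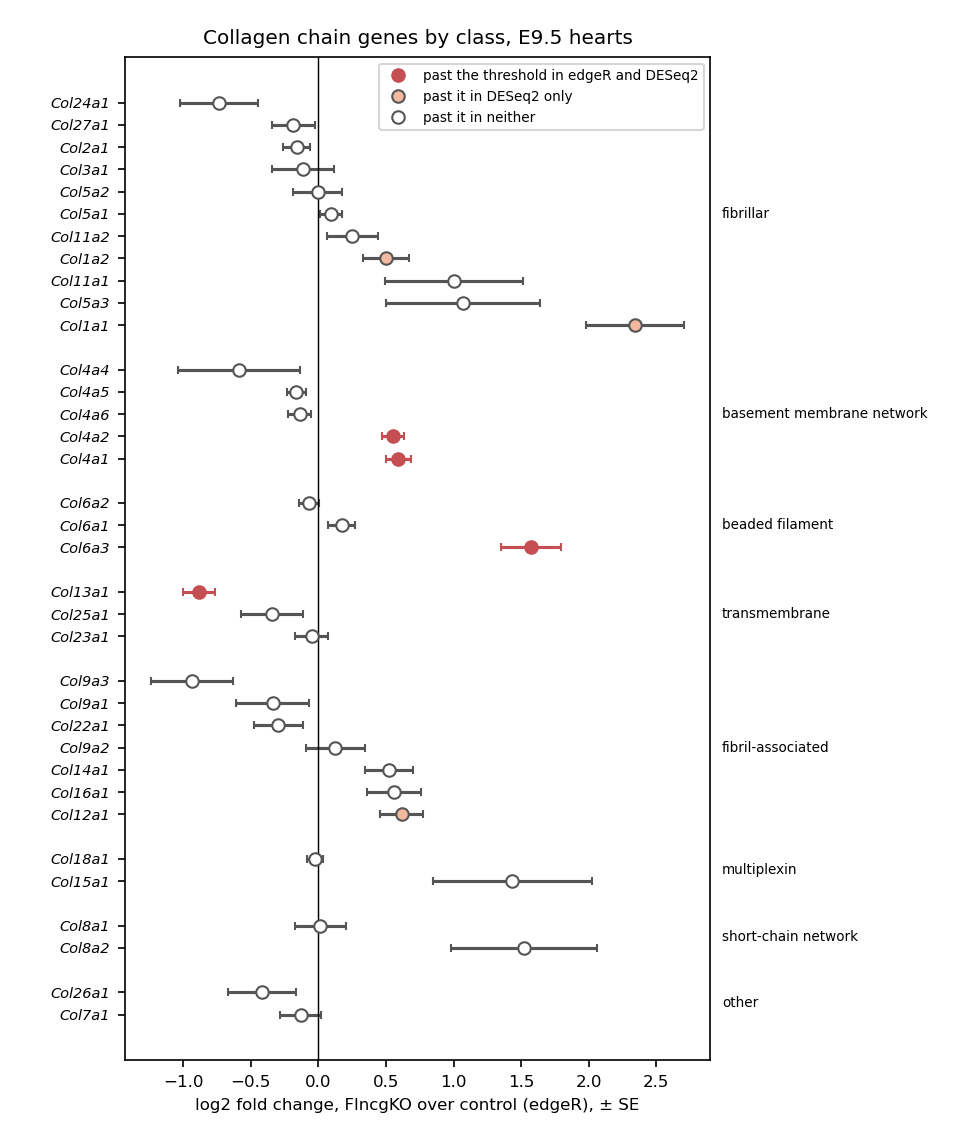
Log2 fold change of the 35 tested collagen chain genes, FlncgKO over control, grouped by class and sorted within each class. Bars are standard errors derived from the edgeR test statistic. Col1a1 lies farthest right at 2.34 and Col9a3 farthest left at -0.93, with 17 members above 0 and 18 below.

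The edgeR calls depended on single libraries, while the 4 called members kept their direction whichever library was left out. In these fits the edgeR log2 fold change ran from 0.496 to 0.636 for Col4a1 and from 0.467 to 0.589 for Col4a2. It ran from 1.476 to 1.7 for Col6a3 and from -0.99 to -0.78 for Col13a1. Without control replicate 1, without control replicate 2 or without FlncgKO replicate 2, edgeR called 0 collagen chain genes. Over all genes it called 1 higher and 0 lower without control replicate 1 (1557 and 865 at an unadjusted p under 0.05), 1 higher and 0 lower without control replicate 2 (1589 and 828), and 37 higher and 1 lower without FlncgKO replicate 2 (1583 and 1049). With all 6 libraries, an unadjusted p under 0.05 was reached by 13.3% of all genes tested in the higher direction and by 8.84% in the lower direction, and every count at this p is to be read beside these shares. At this p the collagen chain genes had 8 higher and 2 lower, 6 higher and 1 lower, and 7 higher and 3 lower members in these fits. Without the same libraries, DESeq2 called 5 members higher and 1 lower each time. Over all genes it then called 564 higher and 127 lower, 566 and 123, and 554 and 203. Without control replicate 3, edgeR called Col6a3 and Col13a1. Without FlncgKO replicate 1 it called Col12a1 as higher and Col13a1 as lower, and without FlncgKO replicate 3 it called Col1a1, Col4a1, Col4a2 and Col6a3 as higher and Col13a1 and Col26a1 as lower. In DESeq2, Col1a1, Col4a1, Col4a2, Col6a3 and Col13a1 stayed past the threshold whichever library was left out. DESeq2 also called Col15a1 as higher and Col4a5 as lower without control replicate 3, Col11a1 and Col8a2 as higher and Col22a1 as lower without FlncgKO replicate 1, and Col26a1 as lower without FlncgKO replicate 3. With the Y-linked level as a covariate, edgeR called 0 members (4 higher and 4 lower with an unadjusted p under 0.05), as it called 0 genes in all, and DESeq2 called Col1a1 as higher and Col26a1 as lower.

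The basement membrane network held 2 of the 3 chain genes that edgeR called higher, both of them abundant. Col4a1 and Col4a2 encode the chains that make up the collagen IV of nearly all basement membranes. Col4a1 had 839, 961 and 934 CPM in the control libraries and 1283, 1288 and 1552 CPM in the FlncgKO libraries. Every FlncgKO library was above every control, and the log2 fold change was 0.59 (SE 0.09, adjusted p = 0.0372 by edgeR, n = 3 and 3), a 1.51-fold rise. Col4a2 had 499, 563 and 549 CPM in the controls and 737, 748 and 876 CPM in FlncgKO hearts. Its groups were as clearly apart, with a log2 fold change of 0.55 (SE 0.081, adjusted p = 0.0372 by edgeR), 1.47-fold. With the Y-linked level as a covariate both calls were lost, with log2 fold changes of 0.48 for Col4a1 and 0.44 for Col4a2 (adjusted p = 0.406 and 0.388 by edgeR, 0.107 and 0.106 by DESeq2).

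Col4a1 and Col4a2 lie head to head on chromosome 8 (GRCm38), Col4a1 at 11198423 to 11312826 on the minus strand and Col4a2 at 11312805 to 11449287 on the plus strand. Their annotated 5′ ends overlap by 22 bases. The overlap, at chr8:11312805-11312826, is printed from RefSeq (GRCm38.p6) because both called genes start in it, on the strand of Col4a2 and with a GC box in capitals.
Col4a1 and Col4a2 overlap: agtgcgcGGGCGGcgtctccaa
The GC box was searched as GGGCGG on both strands, and it occurs in the 250 bases upstream of 32.7% of 32851 RefSeq gene starts. It occurs upstream of 19 of 30 starts of 27 tested collagen chain genes with a sequence in that table. A match is a description of the letters only. The 22 bases lie inside both annotated genes, not upstream of them, and are fewer than 250. The shares of upstream stretches are thus no background for the box marked here. The TATA box, searched as TATAAA, occurred upstream of 3 of the 30 starts (12.4% of all starts), and the CCAAT box, searched as CCAAT, upstream of 11 (33.8% of all starts).

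The other collagen IV chain genes did not pass the threshold. Col4a5 and Col4a6 encode the chains of specialised basement membranes and lie head to head on the X chromosome with 1308 bases between them. Col4a5 had 196, 212 and 177 CPM in the controls and 176, 176 and 172 CPM in FlncgKO hearts, so that every FlncgKO library was just below every control (log2 fold change -0.16, SE 0.069, adjusted p = 0.225 by edgeR). Col4a6 overlapped between groups, with a log2 fold change of -0.14 (SE 0.083, adjusted p = 0.374). The pair Col4a3 and Col4a4, known from the kidney filter, was barely expressed. Col4a4 had 0.309 to 1.11 CPM in the 6 libraries and a log2 fold change of -0.585 (SE 0.45, adjusted p = 0.487 by edgeR), and Col4a3 did not pass the filter. Of the 8 endothelial and endocardial marker genes, 1 (Emcn) was higher in edgeR, beside 1.06% of all genes tested. In DESeq2 4 were higher and 1 lower, beside 6.54% and 2.45% of all genes. The lower gene was Tek, at a log2 fold change of -0.395 in edgeR. The summed level of the 8 markers was 773 to 908 CPM in controls and 927 to 1109 CPM in FlncgKO hearts, and its part in the collagen IV result was not tested.

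**Figure D2:**
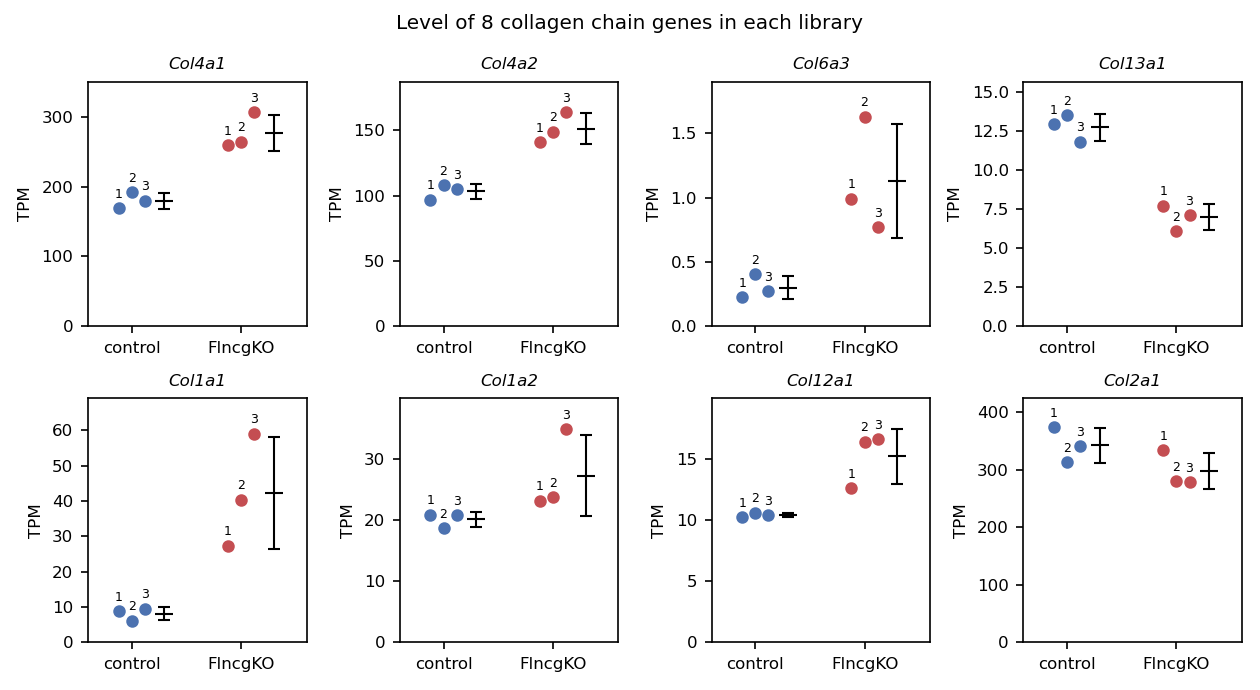
TPM of 8 collagen chain genes in each library, with points numbered by replicate and the mean and SD of each group (n = 3) in black. The groups are apart for the 7 members past the threshold in edgeR or DESeq2, and for Col2a1 the FlncgKO range of 279 to 334 TPM overlaps the control range of 313 to 374 TPM.

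Among the fibrillar collagens the gene of the alpha 1 chain of collagen I had the largest difference of all members. Col1a1 had 32.7, 22.3 and 35.3 CPM in the control libraries and 98.9, 144 and 215 CPM in the FlncgKO libraries. All FlncgKO libraries were above all controls, and replicate 3 was the highest. The log2 fold change was 2.34 (SE 0.36), a 5.07-fold difference, which missed the threshold in edgeR (adjusted p = 0.0605) and passed in DESeq2 (adjusted p = 5.44e-08). With the Y-linked covariate its estimate was 1.57 in edgeR (adjusted p = 0.371) and 1.56 in DESeq2 (adjusted p = 0.000662). Col1a2, the gene of the alpha 2 chain, had 66.0, 56.5 and 65.2 CPM in controls and 75.5, 77.8 and 112 CPM in FlncgKO hearts. These groups did not overlap either, but the log2 fold change was only 0.50 (SE 0.17, adjusted p = 0.155 by edgeR and 0.0231 by DESeq2). DESeq2 lost the call for Col1a2 when any 1 control library was left out.

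The abundant fibrillar chains did not pass the threshold. Col2a1, the chain of collagen II and best known from cartilage, had the highest TPM of all collagen chain genes in every control library. It had 374, 313 and 341 TPM in controls and 334, 280 and 279 TPM in FlncgKO hearts (log2 fold change -0.16, SE 0.10, adjusted p = 0.405 by edgeR). Of 8 marker genes of somite and cartilage precursors, only 2 passed the filter for low counts, and their list summed to 2.52 to 4.52 CPM in the 6 libraries. Pax1, Pax3, Pax9 and Nkx3-2 of that list were at 0 in 2 or more libraries each. Col3a1, the chain of collagen III of soft tissues, had 142, 194 and 154 CPM in controls and 120, 135 and 199 CPM in FlncgKO hearts, with FlncgKO replicate 3 the highest and replicate 1 the lowest of all libraries (log2 fold change -0.11, SE 0.23, adjusted p = 0.818 by edgeR). Col5a1, whose chain helps to start collagen I fibrils, had 317, 273 and 274 CPM in controls and 332, 280 and 309 CPM in FlncgKO hearts (log2 fold change 0.09, SE 0.083, adjusted p = 0.554). Col5a2 had a log2 fold change of -0.004 with an SE of 0.18.

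The remaining fibrillar chains were lower in level. Col11a1, a chain that goes into collagen II and V fibrils, had 19.9, 22.9 and 19.8 CPM in controls and 17.6, 40.6 and 67.9 CPM in FlncgKO hearts. FlncgKO replicate 1 was below all controls and replicates 2 and 3 were above them, and the log2 fold change of 1.00 had an SE of 0.51 (adjusted p = 0.330 by edgeR). Col11a2 was between 2.10 and 2.65 CPM in controls and between 2.68 and 2.87 CPM in FlncgKO hearts (log2 fold change 0.25, adjusted p = 0.471). Col24a1 was at 0.821 to 0.917 CPM in controls and 0.417 to 0.626 CPM in FlncgKO hearts (log2 fold change -0.73, adjusted p = 0.198 by edgeR). Col27a1 and Col5a3 overlapped between groups, at log2 fold changes of -0.18 and 1.07. Of the 11 fibrillar genes, none passed the threshold in edgeR (0 called, 2 higher and 1 lower with an unadjusted p under 0.05), 2 passed in DESeq2, and the median log2 fold change was 0.09.

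Collagen VI is assembled from the chains of Col6a1, Col6a2 and usually Col6a3. Of these, Col6a3 passed the threshold, from a low level. It had 1.51, 1.35 and 1.84 CPM in the control libraries, from 33, 28 and 38 counts, and 3.76, 4.99 and 5.27 CPM in the FlncgKO libraries, from 84, 113 and 101 counts. Every FlncgKO library was above every control. The log2 fold change was 1.57 (SE 0.22, adjusted p = 0.0340 by edgeR), a 2.97-fold rise. With offsets for transcript length the estimate was 1.91 and the call was lost (adjusted p = 0.0595 by edgeR), as it was with the Y-linked covariate, where the estimate was 1.18 (adjusted p = 0.317 by edgeR and 0.404 by DESeq2).

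Col6a1 and Col6a2 are neighbours on chromosome 10, with 85161 bases between them. Col6a1 had 18.8, 16.6 and 17.5 CPM in controls and 17.9, 22.4 and 19.3 CPM in FlncgKO hearts (log2 fold change 0.17, SE 0.10, adjusted p = 0.369 by edgeR). Col6a2 had 35.4, 32.9 and 37.0 CPM in controls and 33.0, 35.7 and 31.7 CPM in FlncgKO hearts (log2 fold change -0.07, SE 0.074, adjusted p = 0.628 by edgeR). Both overlapped between groups. The further collagen VI chains Col6a4, Col6a5 and Col6a6 had at most 3 counts in any library.

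Of the transmembrane collagens, Col13a1 fell and the others did not pass the threshold. Collagen XIII is a membrane protein of cell-matrix junctions. Col13a1 had 27.5, 27.7 and 24.5 CPM in the control libraries and 16.4, 12.3 and 14.6 CPM in the FlncgKO libraries. Every FlncgKO library was below every control, and the log2 fold change was -0.88 (SE 0.12, adjusted p = 0.0324 by edgeR), which is 1.84-fold lower. With the Y-linked covariate the call was lost at -0.645 (adjusted p = 0.325 by edgeR and 0.154 by DESeq2). Col23a1, a close relative, had 18.9, 22.9 and 20.8 CPM in controls and 17.5, 22.9 and 20 CPM in FlncgKO hearts (log2 fold change -0.05, SE 0.12, adjusted p = 0.848). Col25a1, a collagen of neurons and muscle innervation, had a log2 fold change of -0.34 (SE 0.23, adjusted p = 0.439), and Col17a1, a hemidesmosome collagen of skin, was not tested.

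For the called genes that do not share a start, the 120 bases directly upstream of the RefSeq start (GRCm38.p6) are printed on the strand of the gene. That of Col6a3 is at chr1:90843972-90844091 and that of Col13a1 at chr10:61979109-61979228, both on the minus strand.
Col6a3: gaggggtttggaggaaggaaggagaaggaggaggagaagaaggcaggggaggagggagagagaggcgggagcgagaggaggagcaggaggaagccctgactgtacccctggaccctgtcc
Col13a1: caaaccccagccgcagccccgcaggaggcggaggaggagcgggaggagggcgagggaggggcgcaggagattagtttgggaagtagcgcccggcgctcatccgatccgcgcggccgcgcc
Their content of G and C was 63.3% and 73.3%. None of the 3 motifs named above has its letters in either stretch, on either strand, so no base is in capitals.

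Fibril-associated collagens sit on the surface of fibrils. Col12a1, the gene of collagen XII, had the highest level among them. It had 73.6, 66.5 and 62.4 CPM in the control libraries and 79.7, 113 and 118 CPM in the FlncgKO libraries. FlncgKO replicate 1 lay nearest to the controls, and the log2 fold change was 0.62 (SE 0.16, adjusted p = 0.095 by edgeR and 0.00106 by DESeq2). DESeq2 lost this call without FlncgKO replicate 2 (adjusted p = 0.0534), and with the Y-linked covariate edgeR's estimate was 0.15 (adjusted p = 0.840). Col22a1, a collagen of muscle-tendon junctions, had 29.9, 28.1 and 28.9 CPM in controls and 30.9, 19.0 and 21 CPM in FlncgKO hearts (log2 fold change -0.295, SE 0.18, adjusted p = 0.382). Col14a1 and Col16a1 were above all controls in every FlncgKO library, by 0.52 and 0.56 on the log2 scale (edgeR, adjusted p = 0.145 and 0.160). Col9a3, a chain of collagen IX, was below all controls in every FlncgKO library (log2 fold change -0.93, SE 0.30, adjusted p = 0.132 by edgeR). Col9a1 and Col9a2, the partner chains of Col9a3 in collagen IX, overlapped between groups at log2 fold changes of -0.34 and 0.13.

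Multiplexins are basement membrane collagens whose ends can be cut off as separate fragments, endostatin being that of collagen XVIII. Col18a1 was among the most abundant members, at 195, 197 and 174 TPM in controls and 181, 196 and 184 TPM in FlncgKO hearts. The groups overlapped throughout, and the log2 fold change was -0.03 (SE 0.057, adjusted p = 0.831 by edgeR), the smallest SE among the members. Col15a1 had 0.595, 0.386 and 1.55 CPM in controls and 1.30, 1.99 and 3.60 CPM in FlncgKO hearts, with control replicate 3 above FlncgKO replicate 1 (log2 fold change 1.435, SE 0.59, adjusted p = 0.217 by edgeR).

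Short-chain collagens form hexagonal networks, as collagen VIII does in vessels. Col8a1 had 7.04, 6.80 and 5.70 CPM in controls and 5.19, 6.4 and 8.19 CPM in FlncgKO hearts (log2 fold change 0.015, SE 0.19). Col8a2 had 1.42, 0.579 and 1.06 CPM in controls and 1.25, 2.78 and 4.85 CPM in FlncgKO hearts (log2 fold change 1.52, SE 0.54, adjusted p = 0.170 by edgeR). Among the other members, Col26a1 had 20.6, 22.7 and 21.7 CPM in controls and 10.8, 15.9 and 22.2 CPM in FlncgKO hearts, where replicate 3 was within the control range (log2 fold change -0.415, SE 0.25, adjusted p = 0.379 by edgeR). Col7a1, the chain of the anchoring fibrils of skin, had 17.3, 14.3 and 18.4 CPM in controls and 18.3, 14.3 and 13.1 CPM in FlncgKO hearts (log2 fold change -0.13, SE 0.15, adjusted p = 0.655).

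The 9 members that did not pass the filter were Col4a3, Col6a4, Col6a5, Col6a6, Col10a1, Col17a1, Col19a1, Col20a1 and Col28a1. They had 0 to 17 counts in a library, with 23 values of 0, and Col10a1, the collagen of hypertrophic cartilage, had 0 counts in all 6. Without the filter 8 of them could be tested, and edgeR called 0 (0 at an unadjusted p under 0.05).

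Summed by class, per-length levels put most collagen RNA into a few classes. Fibrillar genes summed to 536, 478 and 486 TPM in the control libraries and to 499, 470 and 525 TPM in the FlncgKO libraries, a ratio of means of 0.996. Basement membrane network genes summed to 326, 359 and 335 TPM in controls and to 453, 468 and 521 TPM in FlncgKO hearts, a ratio of 1.41 without overlap. Transmembrane genes summed to 19.3, 20.7 and 18.3 TPM in controls and to 13.3, 13.3 and 13.1 TPM in FlncgKO hearts, a ratio of 0.682, also without overlap. Multiplexins had a ratio of 0.993, beaded filament genes 1.07, fibril-associated genes 1.11, short-chain network genes 1.29 and the other genes 0.760. These sums were described without a test, and those of the basement membrane and transmembrane classes follow their called members.

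**Figure D3:**
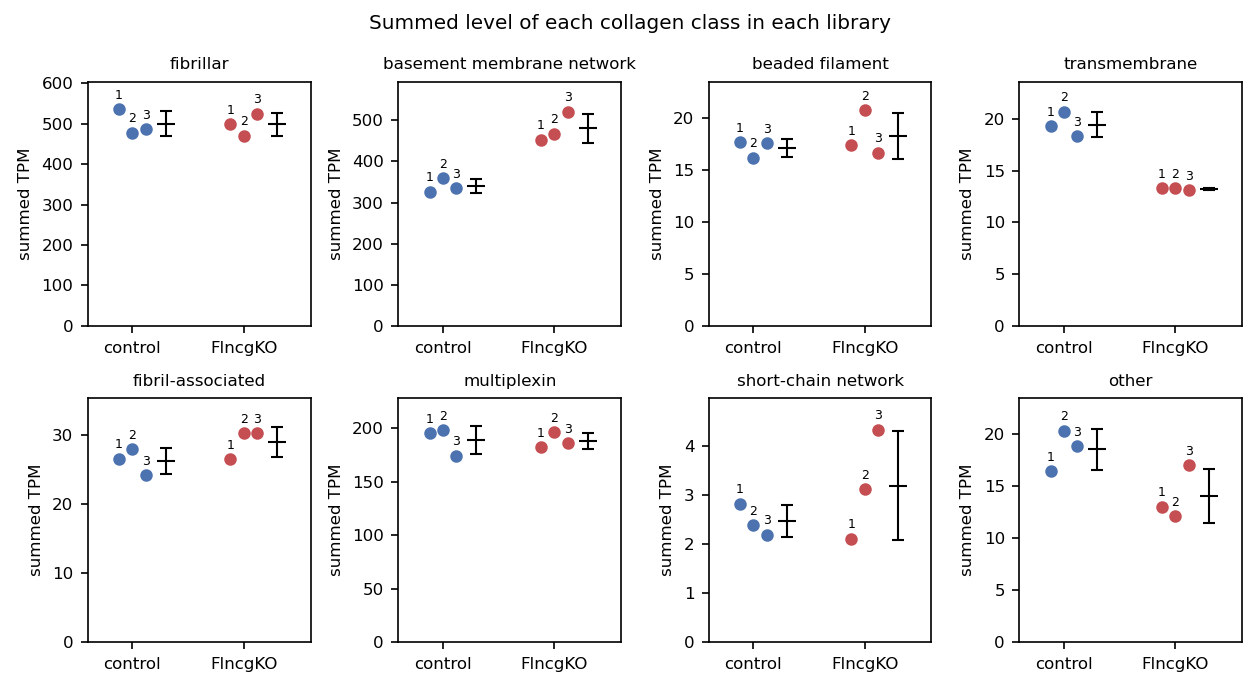
Summed TPM of each collagen class in each library, with points numbered by replicate and the mean and SD of each group (n = 3) in black. The groups do not overlap in the basement membrane network, where FlncgKO libraries run from 453 to 521 TPM, and in the transmembrane class, where they run from 13.1 to 13.3 TPM.

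All collagen chain genes together took 0.108% to 0.114% of TPM in the controls and 0.121% to 0.131% in FlncgKO hearts. Within the collagen total, Col4a1 and Col4a2 took 23.3%, 26.8% and 26.5% in the control libraries and 33.3%, 34.2% and 35.9% in the FlncgKO libraries. The share of Col2a1 was 32.8%, 27.9% and 31.7% in controls and 27.7%, 23.0% and 21.2% in FlncgKO hearts. Collagen IV alpha 1 and alpha 2 thus took a larger share than Col2a1 in all FlncgKO libraries and a smaller one in all controls. Col1a1 and Col1a2 took 2.21% to 2.82% in controls and 4.20% to 7.16% in FlncgKO hearts.

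The collagen I molecule usually holds more alpha 1 than alpha 2 chains, so the ratio of chain transcripts was compared within each library, per length. The ratio of Col1a1 to Col1a2 was 0.419, 0.330 and 0.462 in the control libraries and 1.18, 1.70 and 1.69 in the FlncgKO libraries. Col1a2 was thus the higher transcript in all controls and Col1a1 in all FlncgKO libraries, a 3.76-fold difference of the ratio (two-sided exact permutation p = 0.1). With 3 libraries against 3, 0.1 is the smallest p that the 20 arrangements can give, so none of the 4 ratios compared could pass 0.05, before or after adjustment.

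The ratio of Col4a1 to Col4a2 was 1.74, 1.77 and 1.72 in controls and 1.84, 1.78 and 1.88 in FlncgKO hearts. The groups did not overlap, but they differed only 1.05-fold (exact permutation p = 0.1), while both genes rose by about the same factor. For collagen VI, the ratio of Col6a1 to Col6a2 was 0.520, 0.485 and 0.459 in controls and 0.532, 0.613 and 0.600 in FlncgKO hearts, 1.19-fold apart (exact permutation p = 0.1). Col6a3 was at 0.0378, 0.0780 and 0.0497 of Col6a1 in controls and at 0.176, 0.223 and 0.129 in FlncgKO hearts, 3.26-fold apart (exact permutation p = 0.1). Col6a3 was thus far below its partner chain in every library.

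**Figure D4:**
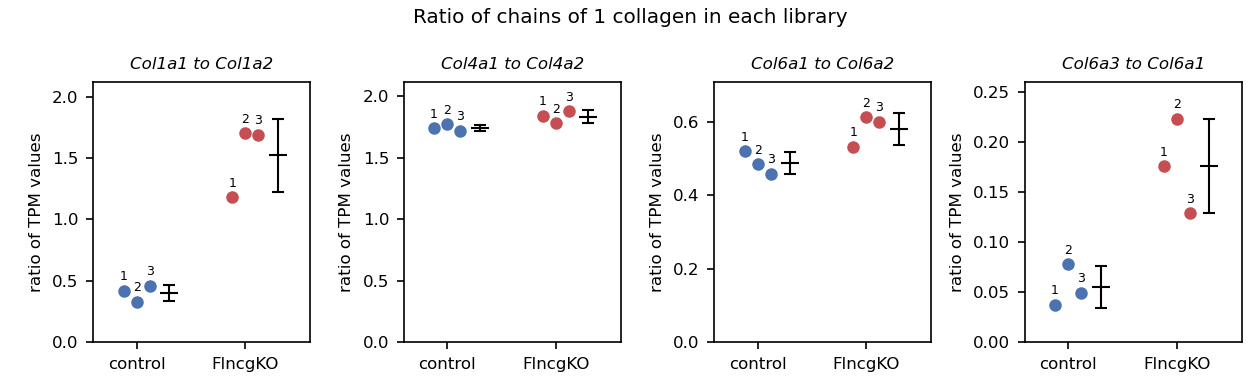
Ratio of the TPM of 2 chains of the same collagen in each library, with points numbered by replicate and the mean and SD of each group (n = 3) in black. The Col1a1 to Col1a2 ratio lies below 0.5 in all controls and above 1 in all FlncgKO libraries, and the Col4a1 to Col4a2 ratio stays between 1.72 and 1.88.

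The files hold transcripts, so the share of the leading transcript could be compared as well. Several named members were carried by 1 transcript in every library. Col4a1-201 had 99.3% to 99.9% of the counts of Col4a1 in the 6 libraries, Col18a1-202 had 98.3% to 99.2% of Col18a1, and Col2a1-201 had 95.4% to 97.4% of Col2a1. In Col7a1 and Col15a1 the leading transcript differed between libraries. Col7a1-202 had 0%, 0% and 95.1% of the counts of Col7a1 in controls and 93.0%, 97.4% and 96.2% in FlncgKO hearts (exact permutation p = 0.2, two-sided). Col7a1-201 and Col7a1-202 are 9198 and 9250 bases long and end at the same base. In every library only 1 of these 2 had counts. How well reads can be told apart between them was not tested. Col15a1-202 had 100%, 0% and 0% of Col15a1 in controls and 100%, 88.4% and 93.8% in FlncgKO hearts (exact permutation p = 0.4), from 8 to 69 counts of the gene in a library. Col13a1 was more mixed. Its leading transcript Col13a1-205 had 70.7%, 58.3% and 63.9% of counts in controls and 74.3%, 70.7% and 55.5% in FlncgKO hearts. The TPM of Col13a1-205 was 8.46, 7.08 and 6.81 in controls and 5.24, 3.88 and 3.40 in FlncgKO hearts, so the transcript followed its gene. For Col6a3 the share of Col6a3-202 in the gene's TPM swung between 41.0% and 100%, since short transcripts with few counts weigh more in TPM. The TPM of Col6a3-202 itself was 0.208, 0.174 and 0.269 in controls and 0.407, 0.714 and 0.723 in FlncgKO hearts. No difference in a leading transcript's share, in TPM or in counts, had an exact permutation p below 0.2. Apart from the 22 bases shared by Col4a1 and Col4a2, genes that share exonic bases with a named member had at most 16 counts in a library.

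Genes that make, secrete, bind or cut collagen were counted in 7 lists of 82 genes, of which 73 were tested. By edgeR 4 of them were higher and 0 lower (3 lower with an unadjusted p under 0.05), beside 1.06% and 0.249% of all genes tested. By DESeq2 19 were higher and 1, the membrane protease gene Mmp14, was lower, beside 6.54% and 2.45% of all genes. All 4 edgeR calls were among the 15 genes that hydroxylate and glycosylate new chains. P4ha1 and P4ha2 encode catalytic subunits of prolyl 4-hydroxylase, which stabilises the helix. P4ha2 had 47.1, 47.3 and 54.9 CPM in controls and 144, 213 and 130 CPM in FlncgKO hearts (log2 fold change 1.71, SE 0.20, adjusted p = 0.0372 by edgeR). P4ha1 had 91.0, 91.9 and 89.4 CPM in controls and 167, 211 and 142 CPM in FlncgKO hearts (log2 fold change 0.93, SE 0.14, adjusted p = 0.0411). P4hb, the gene of their common partner subunit, rose by a log2 fold change of 0.39 (SE 0.048, adjusted p = 0.0310), and Plod1, a lysyl hydroxylase, by 0.46 (SE 0.072, adjusted p = 0.0392). FlncgKO replicate 2 was the highest library for P4ha1, P4ha2, P4hb and Plod1, whereas Col4a1, Col4a2 and Col1a1 were highest in FlncgKO replicate 3. Of this list 14 of 15 genes had a positive log2 fold change, as had 51.6% of all genes tested.

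The other lists held no edgeR calls. In folding and secretion (0 of 8 tested, 3 higher and 0 lower with an unadjusted p under 0.05), the smallest p were those of Creb3l1, a transcription factor for matrix secretion, and Sec24d, a coat protein of transport vesicles, which differed by 0.61 and 0.21 on the log2 scale (edgeR, adjusted p = 0.0610 and 0.154). DESeq2 called Creb3l1. Serpinh1, the collagen chaperone and the most abundant of the list, had a log2 fold change of 0.04 with an SE of 0.066. In propeptide removal and crosslinking (0 of 12 tested, 1 higher and 0 lower with an unadjusted p under 0.05), Loxl2, a lysyl oxidase that crosslinks collagen IV, had 311, 342 and 322 CPM in controls and 567, 739 and 489 CPM in FlncgKO hearts. Its log2 fold change was 0.88 (SE 0.15, adjusted p = 0.0563 by edgeR and 8.18e-09 by DESeq2), and the next smallest p, of Pcolce, went with 0.34 (adjusted p = 0.329).

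Among collagen receptors (0 of 9 tested in edgeR, 5 higher and 0 lower with an unadjusted p under 0.05, 3 higher in DESeq2), Gp6 is the collagen receptor of platelets. It had 0.640, 0.579 and 0.676 CPM in controls and 9.12, 7.76 and 1.83 CPM in FlncgKO hearts (log2 fold change 3.29, SE 0.62, adjusted p = 0.0659 by edgeR). The integrin chain gene Itga2 followed at 0.58 (adjusted p = 0.144). Among fibril-binding proteins (0 of 7 tested in edgeR, 3 higher and 1 lower with an unadjusted p under 0.05, 2 higher in DESeq2), Thbs1, a thrombospondin that platelets also store, had 50, 66.8 and 50 CPM in controls and 894, 607 and 206 CPM in FlncgKO hearts (log2 fold change 3.36, SE 0.63, adjusted p = 0.0850 by edgeR). Fmod was at -0.99 (adjusted p = 0.116).

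Among basement membrane proteins (0 of 15 tested in edgeR, 8 higher and 1 lower with an unadjusted p under 0.05, 4 higher in DESeq2), the laminin chain genes Lama5 and Lamb1 had log2 fold changes of 0.40 and 0.36 (SE 0.078 and 0.074, adjusted p = 0.0579 and 0.0642 by edgeR). This list, which shares its sheet with collagen IV, had a median log2 fold change of 0.35. Among collagen-cleaving proteases and their inhibitors (0 of 7 tested in edgeR, 2 higher and 1 lower with an unadjusted p under 0.05), the inhibitor gene Timp3 had 58.9, 67.4 and 60.9 CPM in controls and 211, 200 and 102 CPM in FlncgKO hearts (log2 fold change 1.46, SE 0.30, adjusted p = 0.0838 by edgeR), and Mmp14 was at -0.27 (adjusted p = 0.0899).

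Markers of other cell types were summed in each library. Of the full lists summed in this paragraph, only those of platelets and cushion mesenchyme did not overlap between groups. The 8 platelet and megakaryocyte markers summed to 18.0 to 26.7 CPM in controls and to 639, 395 and 101 CPM in the FlncgKO libraries. None passed in edgeR (0 of 8, all 8 higher at an unadjusted p under 0.05), while all 8 were higher in DESeq2 (median log2 fold change 5.07 in edgeR). Gp6, Thbs1 and Timp3 were highest in replicate 1 and lowest in replicate 3, in the order of the platelet sum, and no platelet marker was at 0 in any library. Col1a1, Col1a2, Col4a1, Col4a2 and Col6a3 had their highest CPM in replicate 3, where the platelet sum was lowest. Surface ectoderm and epithelium markers summed to 184, 129 and 282 CPM in controls and to 246, 323 and 513 CPM in FlncgKO hearts. Within each group this was the order of Col1a1, with replicate 3 the highest. Krt8 and Krt18 held most of this sum in every library. Krt8 alone had 124, 86.8 and 179 CPM in controls and 164, 203 and 316 CPM in FlncgKO hearts. Krt5, Krt14 and Trp63 of the list did not pass the filter for low counts. All 5 tested genes of that list had a positive log2 fold change (median 1.05). Of these, 0 were called in edgeR (0 at an unadjusted p under 0.05) and 0 in DESeq2. Erythroid markers summed to 2915, 2858 and 8171 CPM in controls and to 7952, 6998 and 11245 CPM in FlncgKO hearts, also highest in replicate 3 of each group. Of their 8 members, 0 were called in edgeR (0 at an unadjusted p under 0.05) and 0 in DESeq2. Cardiomyocyte markers summed to 29898 to 33623 CPM in controls and 27136 to 31874 CPM in FlncgKO hearts. The cushion mesenchyme list was at 829 to 892 CPM in controls and 688 to 734 CPM in FlncgKO hearts, at a median log2 fold change of -0.10. Its most abundant gene, Tbx20, had no overlap between groups, while the other 7 genes summed to 181, 156 and 148 CPM in controls and to 109, 129 and 180 CPM in FlncgKO hearts, with overlap. The epicardial list was at 82.5 to 118 CPM and 79.0 to 100 CPM. The lists for surface ectoderm, endoderm, somites, neural tissue, and macrophages and leukocytes overlapped between groups in their sums. Of their genes 2, Sox17 and Coro1a, were called higher, by edgeR and by DESeq2. Over all genes tested, 1.06% were called higher by edgeR and 6.54% by DESeq2. Sox17 was the only 1 of 6 tested endoderm genes with a positive log2 fold change. Coro1a was 1 of 2 such genes among the 5 tested macrophage and leukocyte genes. The part of these lists in the collagen results was not tested.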

How the data were processed

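Poly(A) RNA of 6 heart samples was made into stranded libraries. The authors assigned reads to GENCODE M22 transcripts (GRCm38.p6) with salmon, whose version is not given in the sources used here, and deposited, for each of 140658 transcripts, estimated counts and TPM. Their methods name DESeq2 1.22.2 for the test.

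Transcripts were joined to GENCODE M21 genes by identifier without version, which left out 0.37% of transcripts with 0.108% to 0.131% of counts. Gene counts are rounded sums of the deposited estimated counts, and gene TPM are plain sums. The main test was the robust quasi-likelihood test of edgeR 4.0.16 (R 4.3.3), after TMM scaling and filterByExpr at its minimum of 10 counts. The SE given with an edgeR log2 fold change is its absolute value divided by the square root of the test's F statistic. It is thus derived from the test and not a fitted standard error. P-values were adjusted by Benjamini-Hochberg with 0.05 as the threshold, and scripts were tested on simulated data. DESeq2 1.42.0 was the alternative on the same genes. TPM ratios and transcript shares were compared by two-sided exact permutation.

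Members, classes and partner and marker lists were chosen with earlier results of these data known. Values in every library are given for members past the threshold in edgeR or DESeq2, for the collagen I, III, IV alpha 1 and alpha 2 and VI alpha 1 to alpha 3 chains, and for the 2 members with the highest mean TPM of each class. Of each partner list the text names every passing gene where 5 or fewer pass, otherwise the 4 with the smallest p, and 2 where none pass. Other members are given by their range or log2 fold change. Col4a5, Col11a1, Serpinh1 and the marker genes named were chosen after their values were seen. Alternatives changed the scaling, filter, length offsets, test, Y-linked covariate, X and Y genes, replicate block and each library in turn. Those chosen after seeing the data were DESeq2 without each library and with the Y-linked covariate. Labels number replicates but do not say that a number marks a litter, so the fit has no pairing.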

Additional observations from a re-analysis of the deposited data

How the results depend on the processing

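Col4a1, Col4a2, Col6a3 and Col13a1 kept their direction and their edgeR call under RLE scaling, library totals, both other filters, the replicate block and without X and Y genes. With length offsets 2 collagen chain genes were higher. DESeq2 called 6 higher and, with the Y-linked covariate, 1 higher, while edgeR with that covariate called 0 higher and 0 lower. Leaving out each library gave 0 to 8 higher and 0 to 2 lower collagen chain genes over both tools.

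Over all genes, the counts higher and lower were 392 and 162 with no filter, 63 and 13 with length offsets, 987 and 370 with DESeq2, and 0 and 0 with the Y-linked covariate. They were 215 and 62 with 10 counts in every library, and 237 and 23 with DESeq2 and the covariate. Leaving out each library gave 1 to 1307 higher and 0 to 557 lower. Partner genes higher were 2 with length offsets, 0 with the covariate, 19 with DESeq2, 7 with DESeq2 and the covariate, and 0 to 23 without a library. Partner genes lower were 1 with DESeq2 and 0 to 1 without a library.

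With the replicate block, 512 genes were higher and 120 lower, and 16 partner genes were higher, while the collagen calls were the same 4. Deviations from the group mean correlated at 0.0428, 0.571 and 0.605 between libraries of equal number. The deviations within a group depend on each other, so these values cannot show whether equal numbers mark paired libraries. Each FlncgKO library correlated best with the control of its own number, but control replicate 1 correlated better with FlncgKO replicate 2 (0.192) than with its own.

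The log2 fold change changed sign for several members, most of them near 0, but also for Col11a1 and Col22a1, which were at 1.01 and -0.295 with all settings as reported. With the Y-linked covariate it was 0.056 for Col2a1 (0.053 in DESeq2), -0.02 for Col6a1 (-0.024), 0.186 for Col7a1 (0.183), -0.401 for Col8a1 (-0.404), -0.113 for Col9a2 (-0.115), -0.495 for Col11a1 (-0.499) and 0.197 for Col22a1 (0.194). With length offsets it was 0.101 for Col7a1 and -0.259 for Col9a2. Col8a1 was at -0.012 with library totals and -0.003 with the replicate block. Without a library, Col3a1 ran from -0.366 to 0.03, Col5a2 from -0.214 to 0.144, Col8a1 from -0.176 to 0.153, Col9a2 from -0.042 to 0.335, Col18a1 from -0.067 to 0.005 and Col23a1 from -0.159 to 0.037.

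The log2 difference of summed class levels with CPM in place of TPM was 0.231 for all members, -0.449 for transmembrane and 0.332 for fibril-associated genes. It was 0.336 for the basement membrane network with the multiplexins added. For leading transcripts, the difference in percentage points was -0.171 for Col12a1 with counts in place of TPM. Without a library it ran from -1.67 to 6.8 for Col3a1, -0.367 to 1.24 for Col6a2, -2.6 to 7.41 for Col13a1, -2.54 to 0.254 for Col18a1 and -9.78 to 0.886 for Col22a1. The cause of these changes was not tested.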
